A study of Mus musculus with 6 samples.

Results

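Caveolae are flask-shaped pits of the plasma membrane that are very dense in endothelial cells. Their coat is built from caveolins, which insert in the inner leaflet, and from cavins, which bind the caveolin-rich membrane from the cytosol. Proteins at the neck hold the pit in place, and in endothelium a diaphragm can close it. Caveolae buffer membrane tension, hold signaling proteins such as the endothelial nitric oxide synthase and carry cargo across the endothelial layer by transcytosis.

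Transcripts of 9 genes of caveolae and transcytosis were followed in mouse embryonic endothelial eEnd2 cells, out of 23420 gene symbols in the count table. The members were picked by gene symbol, and all 9 were found. They are the caveolins Cav1 and Cav2, the cavins Ptrf (now named Cavin1), Sdpr (Cavin2) and Prkcdbp (Cavin3), the neck proteins Ehd2 and Pacsin2, the diaphragm protein Plvap and the lipid transporter Mfsd2a, a known inhibitor of caveolar transcytosis in brain endothelium. To ask how a constitutively acetylated Integrin-β1 affects transcription, the study expressed human Integrin-β1A with an extracellular GFP in these cells, either wildtype (β1-WT-GFP) or with the acetylation-mimetic exchange K794Q (β1-K794Q-GFP). Both chimeras were driven by a short human β-actin promoter, and the methods name no deletion of the mouse gene in either group. GFP-positive cells were sorted, and total RNA of 3 confluent cultures (A, B and C) of each was sequenced after ribosomal RNA depletion, without further treatment. Separate transfections are not named, so that p values measure the spread between cultures, and the labels do not give the sorted GFP population (low or high) of each culture.

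Between 9589826 and 15287191 reads were counted per culture, and the detection limit of 3 counts corresponded to between 0.209 and 0.300 normalized counts (CPM, counts scaled to library size with TMM). This limit covers counting error only. Where 3 values follow each other, they are those of cultures A, B and C in that order. The endothelial label was borne out by 11 of 12 endothelial markers, which had over 100 normalized counts in every culture. Vwf, the remaining one, had at most 2.41. Cultures A and B of β1-WT-GFP cells had 65 genes at least 2-fold apart, while β1-WT-GFP culture C differed by that much from A in 2701 genes and from B in 2539. Among β1-K794Q-GFP cultures these numbers lay between 903 and 2562, the lowest being for A against C. β1-WT-GFP culture C and β1-K794Q-GFP culture B therefore stood apart within their groups. For members whose results rest on them, fits without them are also given, while for related genes this was done only in part.

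Upstream sequences are shown for Cav1 and Cav2, whose transcripts were high together in β1-WT-GFP culture C, and for Sdpr. Sdpr was also high in that culture but followed a different pattern in β1-K794Q-GFP cells. Each sequence is that of the 250 bases before 1 start that RefSeq annotates (GRCm38.p6), 5′ to 3′ on the gene's strand. Where several starts were listed, the lowest in coordinate was taken for Cav1 and the first listed for the other members. Further starts were not examined. The windows are chr6:17306085-17306334 (plus strand) for Cav1, chr6:17280935-17281184 (plus) for Cav2 and chr1:51288876-51289125 (plus) for Sdpr. Capitals mark matches, on either strand, to a GC box (GGGCGG).
Cav1: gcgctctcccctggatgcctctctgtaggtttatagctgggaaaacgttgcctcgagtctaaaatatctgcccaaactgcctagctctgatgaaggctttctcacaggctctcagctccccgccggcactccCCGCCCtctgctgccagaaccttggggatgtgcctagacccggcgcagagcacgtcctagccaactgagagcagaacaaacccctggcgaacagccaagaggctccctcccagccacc
Cav2: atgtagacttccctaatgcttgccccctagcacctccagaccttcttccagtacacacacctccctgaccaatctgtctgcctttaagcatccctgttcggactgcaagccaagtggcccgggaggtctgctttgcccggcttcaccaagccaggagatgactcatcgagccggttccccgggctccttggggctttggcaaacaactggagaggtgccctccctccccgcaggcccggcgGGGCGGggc
Sdpr: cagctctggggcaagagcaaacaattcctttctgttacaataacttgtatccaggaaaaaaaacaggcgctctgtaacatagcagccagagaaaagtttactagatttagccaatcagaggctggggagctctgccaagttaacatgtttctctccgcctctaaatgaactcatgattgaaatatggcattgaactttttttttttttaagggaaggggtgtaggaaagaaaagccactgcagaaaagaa
Cav1 and Cav2 each held 1 GC box, and Sdpr held none. Of the 7 members matched to a RefSeq window, 5 held a GC box, against 32.7% of 32851 windows of the same length. The core of the TEAD motif (GGAATG) was found in Ptrf alone among the 7, against 12.6% of all windows. The FOXO core (GTAAACA) and an ETS core (CCGGAAG) were found in 0 of the 7, against 3.17% and 6.91% of all windows. These matches describe the letters only. The RefSeq windows of Ptrf and Ehd2 lie wholly and partly inside the spans that GENCODE gives these genes, so that the annotations place their starts differently. The Sdpr window was also the poorest in G and C of the 7, at 40.4% against a median of 52.4% over all windows, while those of Cav1, Cav2 and Ptrf had 59.6%, 62.0% and 67.6%.

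Set against all β1-WT-GFP cultures, no gene of the caveolar coat, neck or diaphragm was called as changed in β1-K794Q-GFP cells. Of the 9 members, 8 passed the filter on low counts and were tested, and 0 passed both thresholds of the study (2-fold or more, with an unadjusted p no higher than 0.05 by edgeR's quasi-likelihood test), against 5.19% of all 11608 tested genes. By that p alone the count was also 0 of 8, against 10.2% of all tested genes, and DESeq2 called 0 of the 7 members for which it gave a p, Cav1 having none. The median log2 fold change was -0.06 over the 8 members and -0.02 over all tested genes. In each of the 8 the ranges of both groups overlapped, whereas the groups lay apart in 8.45% of all tested genes with β1-K794Q-GFP cells higher and in 8.12% with them lower. In RNA from whole cultures, fewer cells of a type and less RNA per cell cannot be told apart. The plot of values by culture shows that this overlap came with large differences between cultures of 1 group.

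**Figure D1:**
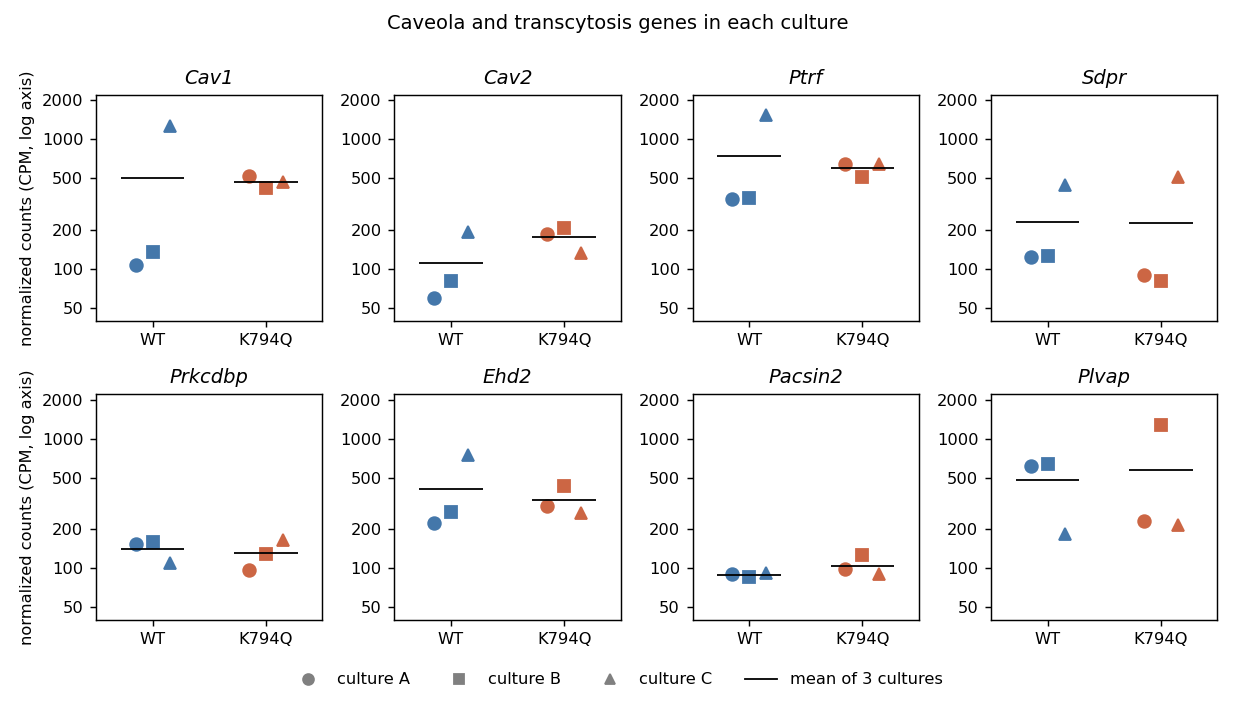
Normalized counts (CPM, log axis) of the 8 tested members in each culture of β1-WT-GFP (blue) and β1-K794Q-GFP (orange) cells. Symbols give the culture letter and black lines the mean of 3 cultures. For Cav1, Cav2, Ptrf and Ehd2 the β1-K794Q-GFP cultures sit close together while β1-WT-GFP culture C lies far above A and B, and for Plvap a single β1-K794Q-GFP culture, B, is high.

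Cav1 encodes caveolin-1, without which endothelial caveolae do not form, and spans bases 17306335 to 17341452 of chromosome 6 (GRCm38). It had 108, 135 and 1266 CPM across β1-WT-GFP cells against 522, 419 and 473 across β1-K794Q-GFP cells. The β1-K794Q-GFP cultures differed by no more than 1.25-fold, and all of them lay between the low pair and the high culture of β1-WT-GFP cells, which were 11.7-fold apart. The group means were 503 ± 661 in β1-WT-GFP and 471 ± 51.8 in β1-K794Q-GFP cells (SD, n = 3 each). This gave a log2 fold change of -0.09 (95% interval -2.36 to 2.17, edgeR adjusted p = 0.983), so that these 6 cultures could not show or exclude a change of several fold in either direction.

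Cav2, the partner that caveolin-1 carries to the membrane, starts upstream of Cav1 on the same strand (17281185 to 17289115), with 17.2 kb between the genes. It had 60.4, 80.9 and 193 CPM across β1-WT-GFP cells against 185, 209 and 133 across β1-K794Q-GFP cells. It followed Cav1 in the order of the β1-WT-GFP cultures with a smaller range, 3.19-fold against 11.7-fold. Its log2 fold change was 0.66 (standard error, SE, 0.46, edgeR adjusted p = 0.739), and only β1-WT-GFP culture C reached into the range of the β1-K794Q-GFP cultures.

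Without β1-WT-GFP culture C both caveolins passed the thresholds, with the higher level under the K794Q chimera. In that fit Cav1 had a log2 fold change of 1.96 (SE 0.22, unadjusted p = 0.00021, edgeR adjusted p = 0.0572) and Cav2 of 1.32 (SE 0.27, adjusted p = 0.119). These were 2 of 8 members past both thresholds, against 8.38% of the genes tested in that fit, and 5.99% in the same direction. Neither adjusted p reached 0.05. In the other 5 fits the members past both thresholds were 0. Cav1, Cav2 and Ptrf were the members in which every β1-K794Q-GFP culture lay above cultures A and B of β1-WT-GFP cells, a pattern that 18.5% of all tested genes also showed.

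In β1-WT-GFP culture C, the consecutive tested genes Cav2, Cav1 and Met of chromosome 6 all lay above the mean of cultures A and B. Their log2 ratios were 1.44, 3.37 and 2.59. The tested neighbours reached from base 13625673 to base 21976038. Of 12 tested neighbours on chromosome 6, 10 were within 2-fold of the mean of cultures A and B in culture C. At least 2-fold above it was 1 neighbour and at least 2-fold below it 1 (8.33% each), against 11.4% and 11.0% of all tested genes. Met, which encodes the receptor of hepatocyte growth factor and follows Cav1, was higher, at 272 CPM in β1-WT-GFP culture C against 41.8 in A and 47.8 in B. In β1-K794Q-GFP cells Met stood at 77.1, 59.9 and 73.4 CPM. Cttnbp2, a cortactin-binding protein gene further along, was lower in β1-WT-GFP culture C, with 16.9 normalized counts against 86.7 and 90.1. These neighbours were picked by position, and Met and Cttnbp2 were singled out after their values were seen. The running median of 25 neighbouring genes at Cav1 lay between -0.09 and 0.11 (log2, with the β1-WT-GFP mean at 0) in the 6 cultures. A median over 25 genes cannot show a change confined to a few adjacent genes. With 12 neighbours, the shares above are also too coarse for that, and a local change was not tested.

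**Figure D2:**
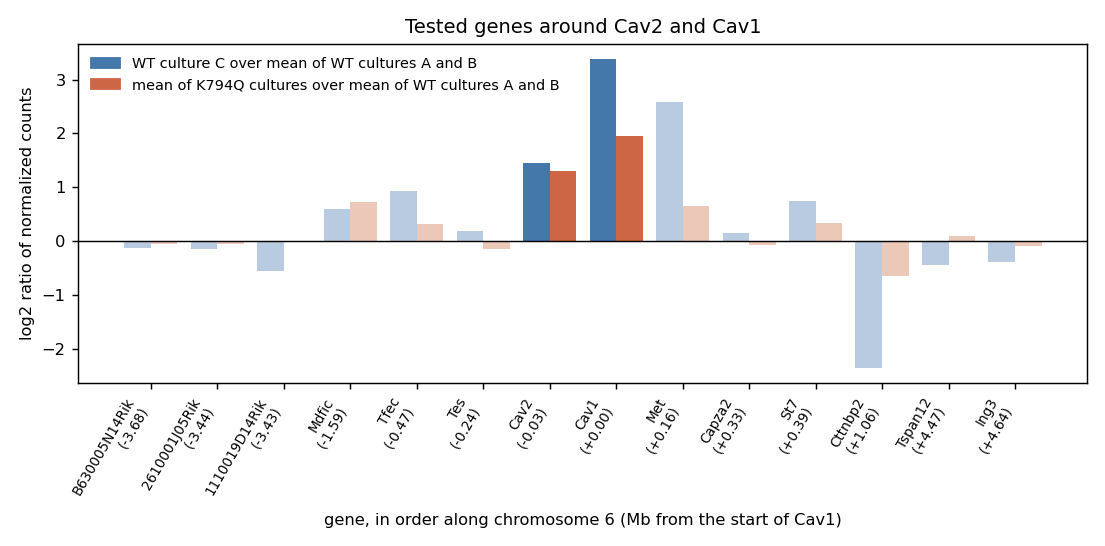
Log2 ratio of normalized counts to the mean of cultures A and B of β1-WT-GFP cells, for β1-WT-GFP culture C (blue) and for the mean of the β1-K794Q-GFP cultures (orange), in the 14 tested genes around Cav2 and Cav1 in their order on chromosome 6. Full colours mark Cav2 and Cav1 and pale colours their neighbours. Cav1 and Met stand out in culture C, and Capza2, the next gene after Met, is near 0.

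The cavins, which bind caveolins and shape the coat, had differing patterns over the 6 cultures. Ptrf encodes cavin-1, which is needed for caveolae to form, and lies on chromosome 11 from 100956733 to 100970887. It had 349, 351 and 1534 CPM across β1-WT-GFP cells against 648, 512 and 644 across β1-K794Q-GFP cells. Its cultures stood in the same arrangement as those of Cav1, with β1-K794Q-GFP cells in the middle. Between the groups the log2 fold change was -0.31 (SE 0.62, edgeR adjusted p = 0.929). Leaving out β1-WT-GFP culture C gave 0.79 (SE 0.20, unadjusted p = 0.0102, adjusted p = 0.171), under the threshold of 2-fold.

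Sdpr encodes cavin-2, a cavin that is abundant in endothelial cells, and lies on chromosome 1 from 51289126 to 51302960. It had 124, 127 and 446 CPM across β1-WT-GFP cells against 89.5, 80.6 and 511 across β1-K794Q-GFP cells. Culture C was thus the high one in both groups, 3.56-fold and 6-fold above the mean of the other cultures of its group. In β1-K794Q-GFP culture C, 5.81% of all tested genes were at least 2-fold above that mean, and 0.491% were as far above it as Sdpr. The log2 fold change was -0.03 (SE 0.88, edgeR adjusted p = 0.994). It became -1.45 (SE 0.67, edgeR adjusted p = 0.633) once β1-K794Q-GFP culture C was left out, and 0.87 (SE 0.91) without β1-WT-GFP culture C. Each of these fits keeps the high culture of the other group. Prkcdbp encodes cavin-3, linked to caveola trafficking and signaling, and lies on chromosome 7 from 105480083 to 105482300, where 374 of its exon bases overlap a gene on the opposite strand. It had 153, 160 and 110 CPM across β1-WT-GFP cells against 96.8, 129 and 164 across β1-K794Q-GFP cells. The cultures of both groups were interleaved, within 1.70-fold of each other in each group. Its log2 fold change of -0.12 had a 95% interval of -0.74 to 0.51, which lies within 2-fold in both directions.

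Scaled by exon length, the coat transcripts differed in total and in mix between cultures. The summed level of caveolins and cavins was 279, 299 and 1065 CPM per kb of exon across β1-WT-GFP cells against 475, 431 and 623 across β1-K794Q-GFP cells. Ptrf exceeded Cav1 per kb in every culture. The ratio of Ptrf to Cav1 was 3.09 and 2.50 in cultures A and B of β1-WT-GFP cells, 1.16 in β1-WT-GFP culture C, and between 1.17 and 1.31 in β1-K794Q-GFP cultures. By this ratio of levels, β1-WT-GFP culture C lay beside the β1-K794Q-GFP cultures and not beside A and B. The ratio of Cav1 to Cav2 was 1.74, 1.61 and 6.37 across β1-WT-GFP cells against 2.73, 1.94 and 3.44 across β1-K794Q-GFP cells. The ratio of Prkcdbp to Ptrf was 0.943, 0.985 and 0.155 across β1-WT-GFP cells against 0.322, 0.542 and 0.55 across β1-K794Q-GFP cells.

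**Figure D3:**
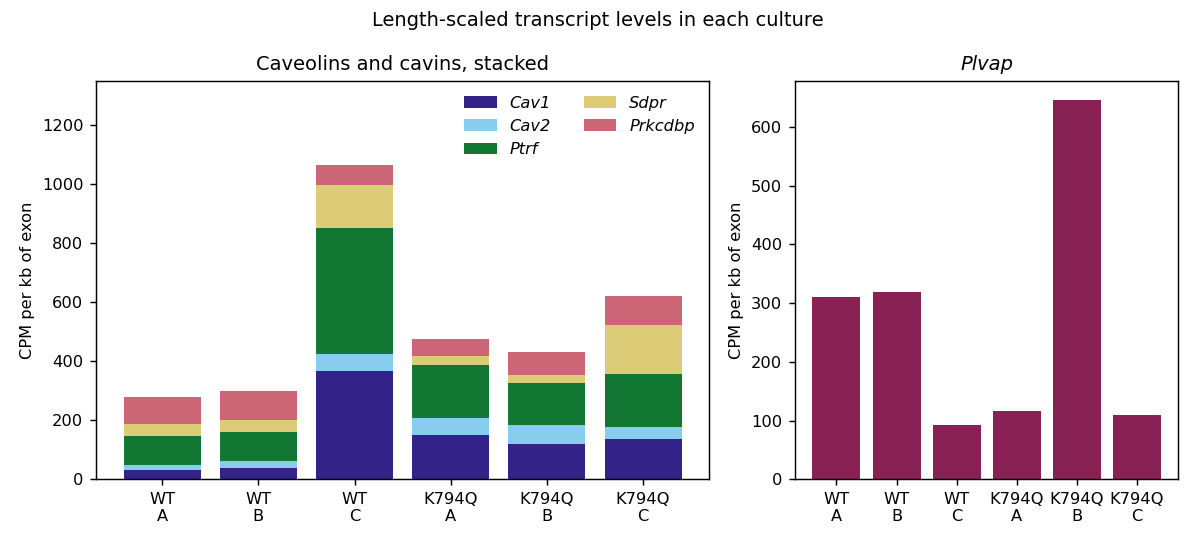
Left, levels of caveolin and cavin transcripts stacked in each culture, in CPM per kb of exon. Right, the level of Plvap in the same unit. The coat sum is highest in β1-WT-GFP culture C (1065) and lowest in β1-WT-GFP culture A (279), and Plvap is highest in β1-K794Q-GFP culture B.

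At the neck of the pit, Ehd2 encodes an ATPase that anchors caveolae at the surface, and lies on chromosome 7 from 15946958 to 15967567. It had 222, 272 and 742 CPM across β1-WT-GFP cells against 302, 434 and 265 across β1-K794Q-GFP cells. β1-WT-GFP culture C was again the highest of the 6. For Ehd2 the log2 fold change was -0.30 (SE 0.50, edgeR adjusted p = 0.911) and 0.45 (SE 0.27) without that culture. Pacsin2 encodes an F-BAR protein that bends membrane at the caveolar neck, and lies on chromosome 15 from 83375607 to 83464606. It was the steadiest member, with 91.0, 85.0 and 92.1 CPM across β1-WT-GFP cells against 98.2, 127 and 89.6 across β1-K794Q-GFP cells. Its log2 fold change was 0.23 (95% interval -0.21 to 0.67), and together with Prkcdbp it was 1 of 2 tested members whose interval stayed within 2-fold.

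In β1-WT-GFP culture C, 5 of the 8 tested members (Cav1, Cav2, Ptrf, Sdpr and Ehd2) were at least 2-fold above the mean of cultures A and B, against 11.4% of all tested genes. They did so by 10.4-fold, 2.73-fold, 4.38-fold, 3.56-fold and 3.01-fold. As far above the mean of A and B as these were 0.896%, 6.4%, 2.64%, 3.89% and 5.33% of all tested genes. Plvap was at least 2-fold below that mean, as were 11.0% of all tested genes, and 3.72% were as far below it as Plvap. The 8 mesenchymal markers summed to 28.9 normalized counts in β1-WT-GFP culture C and to between 0.787 and 3.65 in the other 5 cultures, with Dcn and Lum at 0 counts in all 6 and Pdgfra leading at 16.4 in culture C. Their part in the high coat transcripts of that culture was not tested. The 4 skeletal muscle markers, of a tissue rich in caveolae, were at 0 counts in all 6 cultures, and the 4 epithelial markers summed to at most 0.592.

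Plvap encodes the protein of the diaphragms that span endothelial caveolae and fenestrae, and lies on chromosome 8 from 71497765 to 71511752. It had 615, 634 and 184 CPM across β1-WT-GFP cells against 231, 1283 and 217 across β1-K794Q-GFP cells. The high cultures were β1-K794Q-GFP culture B and cultures A and B of β1-WT-GFP cells, and the remaining ones lay between 184 and 231. Between the groups the log2 fold change was 0.27 (SE 0.83, 95% interval -1.74 to 2.29, edgeR adjusted p = 0.958). Without β1-K794Q-GFP culture B it was -1.08 (SE 0.57, unadjusted p = 0.112), in the opposite direction and not past the thresholds. In β1-K794Q-GFP culture B, Plvap was 5.72-fold above the mean of the other cultures of its group. At least 2-fold above that mean were 6.93% of all tested genes, and 1.09% were as far above it as Plvap. Per kb of exon, the ratio of Plvap to Cav1 was 9.83, 8.15 and 0.252 across β1-WT-GFP cells against 0.768, 5.31 and 0.797 across β1-K794Q-GFP cells.

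Among the 4 adipocyte markers, which were listed because adipocytes are rich in caveolae, Adipoq was at 0 counts in all 6 cultures. Plin1 and Lep had at most 1 count in a culture. Fabp4, which capillary endothelial cells also express, had 473, 498 and 128 CPM across β1-WT-GFP cells. Across β1-K794Q-GFP cells it had 66.3, 891 and 30.4, so that its high and low cultures were those of Plvap. Of the 4 leukocyte markers Cd68 led, with between 31.0 and 103 normalized counts, while Cd3e was at 0 and Ptprc and Itgam were at most 0.279. The part of these markers in the Plvap values was not tested.

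With both β1-WT-GFP culture C and β1-K794Q-GFP culture B left out, a comparison of 2 against 2 cultures added after the data were seen, 3 members passed both thresholds. Cav1 (log2 fold change 2.05, edgeR adjusted p = 0.00603) and Cav2 (1.19, adjusted p = 0.0315) were higher in β1-K794Q-GFP cells. Plvap was lower (-1.46, adjusted p = 0.00869). The omitted cultures held the values that made the groups overlap. These were 1266 CPM for Cav1 in β1-WT-GFP culture C, and for Plvap 184 there and 1283 in β1-K794Q-GFP culture B. The separation in this fit therefore follows from the choice of cultures, and its p values cannot serve as separate evidence of a change. In the same fit 14.2% of all tested genes passed both thresholds, and 15.3% stayed at or under 0.05 after adjustment. Ptrf had an adjusted p of 0.0269 at a log2 fold change of 0.90, under 2-fold.

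**Figure D4:**
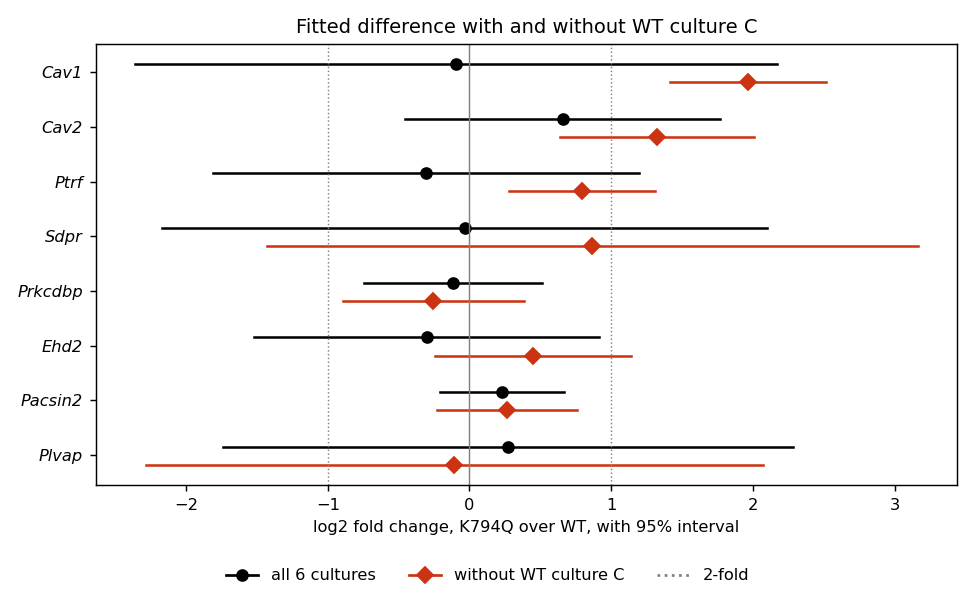
Log2 fold change of β1-K794Q-GFP over β1-WT-GFP cells with its 95% interval for the 8 tested members, from all 6 cultures (black circles) and without β1-WT-GFP culture C (red diamonds). Dotted lines mark 2-fold. From 6 cultures every interval includes 0, and without culture C the intervals of Cav1, Cav2 and Ptrf lie above it.

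Mfsd2a, on chromosome 4 from 122946850 to 122961188, was not detectable above the counting limit. It had 2, 0 and 1 counts across β1-WT-GFP cells against 2, 1 and 1 across β1-K794Q-GFP cells. Each value is under the limit of 3 counts, and no fold is given. By length-scaled mean level over the 6 cultures, the detected members ranked from Plvap (266 CPM per kb of exon) over Ptrf (188), Cav1 (141), Prkcdbp (81.5), Sdpr (75.2), Ehd2 (72.8) and Cav2 (43.0) to Pacsin2 (19.8). The order was not the same in each culture. In β1-WT-GFP culture A Cav1 was sixth, at 31.5 CPM per kb, while in β1-WT-GFP culture C it came second, at 368 after Ptrf at 428. The means of Prkcdbp, Sdpr and Ehd2, neighbours in this order, differed by less than the spread of Sdpr or Ehd2 between cultures.

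Other genes of caveolae, of endocytosis and vesicle transport, and of blood-brain barrier transporters were read from 5 lists. Of 73 listed genes, 60 were tested and 5 passed both thresholds (8.33%, against 5.19% of all tested genes), 3 of them lower and 2 higher with the K794Q chimera. Adjusted over all tested genes, edgeR's test left 1 of them, Abcb1a, against 0.181% of all tested genes at an adjusted p of 0.05 or less. Abcb1a, from the list of blood-brain barrier transporters, encodes a P-glycoprotein that pumps drugs out of brain endothelium. It had 10.3, 10.8 and 15.5 CPM across β1-WT-GFP cells against 0.481, 0.197 and 0.086 across β1-K794Q-GFP cells. The groups lay far apart, at a log2 fold change of -5.54 (SE 0.60, adjusted p = 0.0474), and the value stayed between -6.35 and -5.12 whichever culture was omitted. β1-K794Q-GFP cultures B and C lay under their limits of 3 counts (0.296 and 0.258 CPM), so that the size of this fold is imprecise and depends on the prior count of the fit. Abcb1a passed both thresholds in all 6 fits that omitted a culture, but calls after adjustment depended on the fit. Related genes at an adjusted p of 0.05 or less numbered 1 with no filter, RLE scaling or the regional offset. They numbered 5 in DESeq2 and 2 when β1-K794Q-GFP culture B was omitted. None was left with the culture letter as a block or in the other 5 omission fits. Among all tested genes, the block and 4 of these 5 fits left at most 1, so they cannot show whether Abcb1a in particular is unstable. The remaining fit, which omitted β1-WT-GFP culture C, left 28 genes. Without β1-WT-GFP culture C the adjusted p of Abcb1a was 0.0572, and it went untested where each culture needed 10 or more counts. Reads can be shared with its close paralog Abcb1b, which had 18.1, 20.2 and 20.7 CPM across β1-WT-GFP cells against 32.3, 7.8 and 40 across β1-K794Q-GFP cells (log2 fold change 0.44, edgeR adjusted p = 0.881). Of the 8 tested blood-brain barrier transporters no other passed, and the median log2 fold change of the list was -0.54. Abcg2, the transporter with the highest mean, had 340.5, 381 and 124 CPM across β1-WT-GFP cells, and between 104 and 191 in β1-K794Q-GFP cultures. Slco1c1, Slco1a4 and Slc38a5 had 0 counts in all 6 cultures.

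Among 9 tested genes of other caveola proteins, Flot1 was the gene past both thresholds. It encodes a flotillin, a scaffold of membrane domains other than caveolae. It had 32.2, 33.1 and 30.4 CPM across β1-WT-GFP cells against 12.5, 6.02 and 12.7 across β1-K794Q-GFP cells. Here β1-WT-GFP culture C lay with A and B, and every β1-K794Q-GFP culture was lower (log2 fold change -1.61, SE 0.32, edgeR adjusted p = 0.143). Omitting any single culture kept the call. Its partner Flot2, named after its values were seen, was not tested, with 31.8 normalized counts in β1-K794Q-GFP culture B and at most 0.3 in the other 5. Flna, which encodes the filamin that links caveolae to actin and had the highest mean of this list, had 893, 875 and 3441 CPM across β1-WT-GFP cells. Across β1-K794Q-GFP cells it had 602, 1285 and 1259. Its high culture was thus the one in which the caveolar coat was high, and 11.4% of all tested genes were also at least 2-fold above A and B there. The log2 fold change of Flna was -0.73 (edgeR adjusted p = 0.809). The muscle genes Cav3 and Murc (cavin-4) were at 0 counts and at most 0.627 normalized counts.

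The clathrin route, which forms coated pits without caveolin, had 19 tested genes with a median log2 fold change of -0.15. Itsn1, a scaffold of coated pits, passed both thresholds. It had 87.8, 87.4 and 70.2 CPM across β1-WT-GFP cells against 36.9, 24.3 and 46.7 across β1-K794Q-GFP cells, with no overlap (log2 fold change -1.19, SE 0.27, edgeR adjusted p = 0.178). Without β1-K794Q-GFP culture B its log2 fold change was -0.96, under 2-fold. Cltc, the clathrin heavy chain and the most abundant of this list, stood at 1901 ± 374 CPM in β1-WT-GFP and 1538 ± 97.7 in β1-K794Q-GFP cells (SD, n = 3 each), with an adjusted p of 0.8 from edgeR's test.

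Of 13 tested genes of vesicle fusion and endosome traffic, Rab5b, a GTPase of early endosomes, passed both thresholds. It had 127, 138 and 92.2 CPM across β1-WT-GFP cells against 370, 192 and 299 across β1-K794Q-GFP cells (log2 fold change 1.27, SE 0.30, edgeR adjusted p = 0.198). It lies on chromosome 10 among genes that were also higher in β1-K794Q-GFP cells, and relative to a running median over 25 genes around it, its log2 fold change was -0.08. Its relative Rab5c, the most abundant gene of the list, stood at 247 ± 22.6 and 248 ± 28.5 CPM in β1-WT-GFP and β1-K794Q-GFP cells (n = 3 each, SD), with a log2 difference of 0.01 (SE 0.18).

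Of 11 tested receptors of transcytosis, Gpihbp1 passed both thresholds. It encodes the protein that carries lipoprotein lipase across capillary endothelium. It had 16.7, 14.1 and 1.6 CPM across β1-WT-GFP cells against 70.5, 81.1 and 41.3 across β1-K794Q-GFP cells. The lowest β1-K794Q-GFP value lay above the highest of β1-WT-GFP cells (log2 fold change 2.58, SE 0.80, edgeR adjusted p = 0.322), and omitting any single culture kept the call, with values between 2.07 and 3.04. Insr, the insulin receptor and most abundant of this list, had 114, 111 and 82.1 CPM across β1-WT-GFP cells against 150, 483 and 123 across β1-K794Q-GFP cells (unadjusted p = 0.0534). Lrp2 and Pigr, receptors of epithelial transcytosis, had 0 counts.

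**Figure D5:**
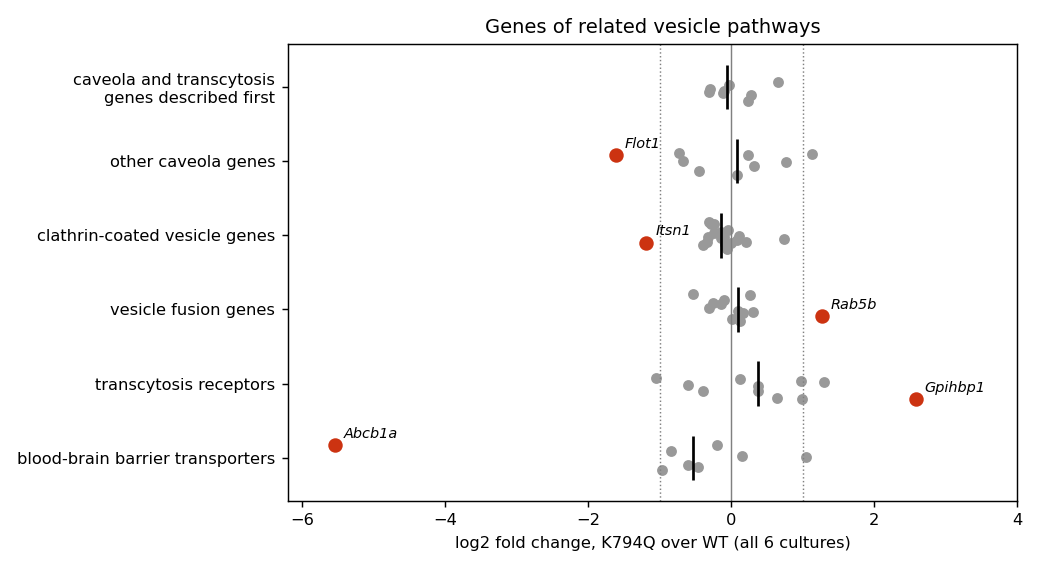
Log2 fold change of β1-K794Q-GFP over β1-WT-GFP cells for the tested genes of the 9 members (top row) and of the 5 related lists, from all 6 cultures. Red points passed both thresholds, grey points did not, black bars are medians and dotted lines mark 2-fold. The 8 tested members lie within 2-fold, and Abcb1a is the farthest point from 0.

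Without β1-WT-GFP culture C, 11 of the 60 related genes passed both thresholds, against 8.38% of all genes tested in that fit. The 5 genes called from all 6 cultures were among them. Of the other 6, named by passing in this fit, Cltb, Lrp1, Slc16a1 and Tfrc were higher in β1-K794Q-GFP cells, and Abcg2 and Ehd3 were lower. Lrp1, the large lipoprotein receptor that carries cargo across brain endothelium, had 1.66, 1.00 and 74.8 CPM across β1-WT-GFP cells. Across β1-K794Q-GFP cells it had 92.7, 27.0 and 35.1. Its low cultures were the pair in which Cav1 was low, an arrangement favoured by naming Lrp1 for passing only in this fit. Its log2 fold change was 0.99 (SE 1.51, edgeR adjusted p = 0.903) from all cultures and 5.27 (SE 0.78, adjusted p = 0.081) without β1-WT-GFP culture C. Tfrc, the transferrin receptor, had 38.3, 44.1 and 145 CPM across β1-WT-GFP cells against 111, 124 and 60.9 across β1-K794Q-GFP cells.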

How the data were processed

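Total RNA of 3 cultures of β1-WT-GFP and 3 cultures of β1-K794Q-GFP eEnd2 cells was sequenced after ribosomal RNA depletion, and groups were taken from the transfection label. The authors deposited read counts per mouse gene symbol, not normalized; the submitters' processing notes name bcl2fastq 2.20.0, STAR 2.7.4a, HTSeq 0.9.1, edgeR 3.38.4 and mm10. The annotation release and the strand setting of the counting are not given in the sources used here, and of the 9 members 1, Prkcdbp, shares annotated exon bases (374) with a gene on the opposite strand. The paper mentions 2 sequencing experiments on the same samples, and which of them the counts come from was not examined.

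Counts of all 23420 symbols in 6 columns (0 further columns) entered edgeR 4.0.16 (R 4.3.3). filterByExpr left 11608 genes, libraries were scaled with TMM, and groups were compared with glmQLFit and glmQLFTest (two-sided, common dispersion 0.186). Calls needed a 2-fold difference with unadjusted p no higher than 0.05, the study's own limits. Adjusted p values (Benjamini-Hochberg) cover every tested gene. Standard errors are the log2 fold change divided by the root of F. Positions and exon lengths are from GENCODE M21 (GRCm38, the build of mm10). Of the symbols 21737 matched directly and 1257 through a synonym. The closest libraries, A and B of β1-WT-GFP, were farther apart than sampling noise (chi-square divided by its degrees of freedom, 10.2) and stayed separate.

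The members, the lists of related genes and markers, and the rule for named genes (all members; in each list, genes past both thresholds and the gene with the highest mean; for Cav1 and Plvap, the 3 genes with the most similar pattern) were chosen with earlier results of these data known. Alternatives were no filter, at least 10 counts in every culture, RLE scaling, DESeq2 1.42.0, the culture letter as a block, a regional offset (running median of 25 neighbouring genes) and leaving out each culture. The fits were tested on simulated counts. Figures were drawn with matplotlib 3.10.9.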

Additional observations from a re-analysis of the deposited data

How the results depend on the processing

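The count of members past both thresholds was 0 from all 6 cultures, between 0 and 2 when single cultures were omitted (2 without β1-WT-GFP culture C, 0 otherwise) and 3 without both β1-WT-GFP culture C and β1-K794Q-GFP culture B. It was 0 under the other alternatives, where DESeq2 gave no p for Cav1. The related genes past both thresholds were 5, between 5 and 11 with a culture left out (11 without β1-WT-GFP culture C), and 11 with both left out. Over all genes the count was 603, 916 with no filter on low counts, between 501 and 992 with a culture left out (942 without β1-K794Q-GFP culture B, 992 without β1-WT-GFP culture C), and 1661 with both left out. Genes with an adjusted p of at most 0.05 numbered 21, against 477 in DESeq2 and 4 with at least 10 counts in every culture. Omitting β1-K794Q-GFP culture A or C or β1-WT-GFP culture A left 0, omitting β1-WT-GFP culture B left 1, omitting β1-WT-GFP culture C gave 28, omitting β1-K794Q-GFP culture B gave 125, and omitting both cultures gave 1796. Of 104 member values under alternatives, 84 kept direction and side of the thresholds, 18 changed sign, 3 of which also came to pass the thresholds (Cav1 without β1-WT-GFP culture C, and Cav1 and Plvap with both left out), and 2 came to pass them in the same direction (Cav2 in those fits). The 84 include Cav1 in DESeq2, which had no p and was counted as not past the thresholds. Omitting single cultures, log2 fold changes ranged from -0.57 to 1.96 for Cav1, -0.65 to 0.79 for Ptrf, -1.45 to 0.87 for Sdpr, -0.32 to 0.058 for Prkcdbp, -0.61 to 0.45 for Ehd2 and -1.08 to 0.66 for Plvap. With both cultures left out they were 2.05 for Cav1, 0.90 for Ptrf, 1.27 for Sdpr, 0.22 for Ehd2 and -1.46 for Plvap, and with the regional level taken out 0.13 for Sdpr. The labels do not say whether the culture letters pair the samples, and the values do not settle it. Over genes, the deviations of same-lettered cultures from their group means correlated at 0.109, 0.055 and 0.102. Those of unlike letters correlated at between -0.162 and 0.113. β1-K794Q-GFP culture A was closest to β1-WT-GFP culture B, while cultures B and C were each closest to the culture of the same letter. With the culture letter as a replicate block, Cav1 was at 0.93, Ptrf at 0.082 and Plvap at -0.035, and no member passed. Sdpr was at -0.31 in that fit, with an SE of 0.26 against 0.88 without the block. Over all genes 571 genes passed both thresholds with the block, while 1 gene was at or under 0.05 after adjustment. The cause of these shifts was not tested beyond the samples each fit leaves out. With 3 cultures a group, intervals of several fold for Cav1, Sdpr and Plvap limit what can be shown.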

Other observations

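Among 9146 genes with a mean of at least 10 normalized counts, those whose pattern over the 6 cultures was most like that of Cav1 were Tcea1, a transcription elongation factor (Pearson's r = 0.995, Spearman's rho = 1 on log2 values), Nudcd2 (0.993 and 1) and Il17ra, a receptor of interleukin-17 (0.991 and 0.886). Their levels moved much less than that of Cav1: Tcea1 had 45.3, 45.8 and 63.9 CPM across β1-WT-GFP cells against 56.3, 53.0 and 55.5 across β1-K794Q-GFP cells. Without β1-WT-GFP cultures A and B, the cultures farthest from the median of Cav1, r was 0.988 for Tcea1, 0.99 for Nudcd2 and 0.968 for Il17ra. The cultures left were those of β1-K794Q-GFP cells, close together in Cav1, and β1-WT-GFP culture C, far above them. These r values therefore rest largely on culture C and cannot show that the match is independent of single cultures.

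For Plvap the closest patterns were those of Gdpd5 (r = 0.995), Rab2b (0.994), a GTPase of the secretory pathway, and Trappc2l (0.991), a subunit of a vesicle tethering complex, with Spearman's rho of 1, 0.771 and 0.886. Rab2b had 34.5, 34.3 and 26.9 CPM across β1-WT-GFP cells against 26.7, 40.8 and 26.7 across β1-K794Q-GFP cells, a much smaller range than that of Plvap. These are descriptions of the best matches of many genes over 6 cultures, without a test.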
